A study of Mus musculus with 16 samples.

Results

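Voltage-gated calcium channels open when the membrane depolarizes and let calcium into the cell. Each has a pore subunit, which sets the current type. In channels other than the T-type, auxiliary beta and alpha2delta subunits help carry the pore to the surface. In sensory neurons of the dorsal root ganglion (DRG), N-type and P/Q-type channels trigger transmitter release, L-type channels link activity to gene expression, and T-type and R-type channels shape excitability. Cacna2d1 encodes alpha2delta-1, a binding target of gabapentin, and is known to increase in DRG neurons after peripheral nerve injury in rodents. The 10 genes described here were taken from a table of 55356 gene identifiers as the rows whose Ensembl identifiers map to the pore subunit genes Cacna1a, Cacna1b, Cacna1c, Cacna1d, Cacna1e, Cacna1g and Cacna1h and the alpha2delta genes Cacna2d1, Cacna2d2 and Cacna2d3. All 10 were found, and all 10 passed the filter on low counts that left 19156 genes for testing.

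RNA was sequenced from 16 cultures labelled as embryonic DRG of CD1 mice, with 4 libraries in each of 4 groups. At 6 days in vitro the neurons received either 500 nM GNE3511, a compound that blocks dual leucine zipper kinase (DLK), or the solvent DMSO, and 15 minutes later either nocodazole at 200 nM or DMSO for 16 hours. DLK is a kinase that acts upstream of JNK and is known as a sensor of axon damage, and nocodazole makes microtubules depolymerize. The groups are therefore GNE3511 then nocodazole (inhibitor plus nocodazole), GNE3511 then DMSO (inhibitor alone), DMSO then nocodazole (nocodazole alone) and DMSO then DMSO (vehicle). All 4 groups shared a medium with nerve growth factor and 5-fluoro-2'-deoxyuridine, which removes dividing cells, so the model is a culture dependent on that growth factor. DLK was targeted with a single compound only, and its activity was not measured in these data. Ribosomal RNA was depleted before library preparation. Nothing in the labels says whether replicates were separate dissections, so the p-values speak only of library-to-library spread, which may be technical.

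Libraries held 30987962 to 43321421 counts. All 15 neuronal marker genes checked were above 1 CPM (counts scaled to a common library size) in every library, while 7 of 11 Schwann and satellite glia markers, among them Sox10 and Cdh19, stayed below 1 CPM in every library. Glial transcripts were not absent, since S100b was at 22.8 to 105 CPM, Mbp at 46.7 to 74.7 CPM and Pmp22 at 5.62 to 14.7 CPM. The first principal component, which held 38.2% of the variance, placed the nocodazole libraries between 59.5 and 69.7 and the vehicle libraries between -26.5 and -12.2. Among inhibitor plus nocodazole libraries, replicates 2 to 4 lay between -31.4 and -28.4 but replicate 1 lay at 10.4. Inhibitor libraries lay apart in pairs, replicates 2 and 3 at -9.68 and -15.2 and replicates 1 and 4 at -41.6 and -32.3. The mitochondrial share of counts was above 1.2% in 5 libraries, namely inhibitor plus nocodazole replicate 1 (1.71%), inhibitor replicates 2 and 3 (1.39% and 1.78%) and nocodazole replicates 1 and 2 (1.36% and 1.5%). It was 0.765% to 1.09% in the other 11. The 5 libraries carry consecutive numbers in the submitters' sample numbering, and none of them is a vehicle library. A difference tied to that order would fall on the treated side of every comparison with vehicle. Whether the numbering follows the order of processing is not stated, and what sets these libraries apart was not tested. An analysis without these 5, chosen after seeing the data, is given for some results, chiefly where it ends or makes a call among the 10 genes. Values given without it may also move when these libraries are left out.

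Cacna1b, the N-type pore gene, was the leading channel transcript in every group. Per kilobase of annotated exon, the vehicle level was 105 ± 7.09 CPM for Cacna1b (SD, n = 4 for every mean below). Cacna2d2, Cacna2d1 and Cacna1a followed at 38.1 ± 1.77, 35.0 ± 1.73 and 32.5 ± 1.21 CPM per kb. Cacna2d1 overlapped in range with Cacna1a and with Cacna2d2, so these neighbours in the order were not separated by their spread. The L-type gene Cacna1c was at 14.7 ± 1.1 CPM per kb and the T-type gene Cacna1h at 9.37 ± 0.599 CPM per kb. Cacna1e, the R-type gene, was at 3.18 ± 0.431 CPM per kb, above the L-type gene Cacna1d at 2.26 ± 0.334 and Cacna2d3 at 1.46 ± 0.151. The ranges of Cacna1e and Cacna1d overlapped only narrowly, with a lowest Cacna1e value of 2.54 and a highest Cacna1d value of 2.56 CPM per kb. Cacna1g, a T-type gene, was at the limit of detection with 3 to 21 counts per library. These levels use the summed exons of an annotation, 25228 bases for Cacna1e and 9942 bases for Cacna1b, so a gene whose long exons are partly unused is understated.

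**Figure D1:**
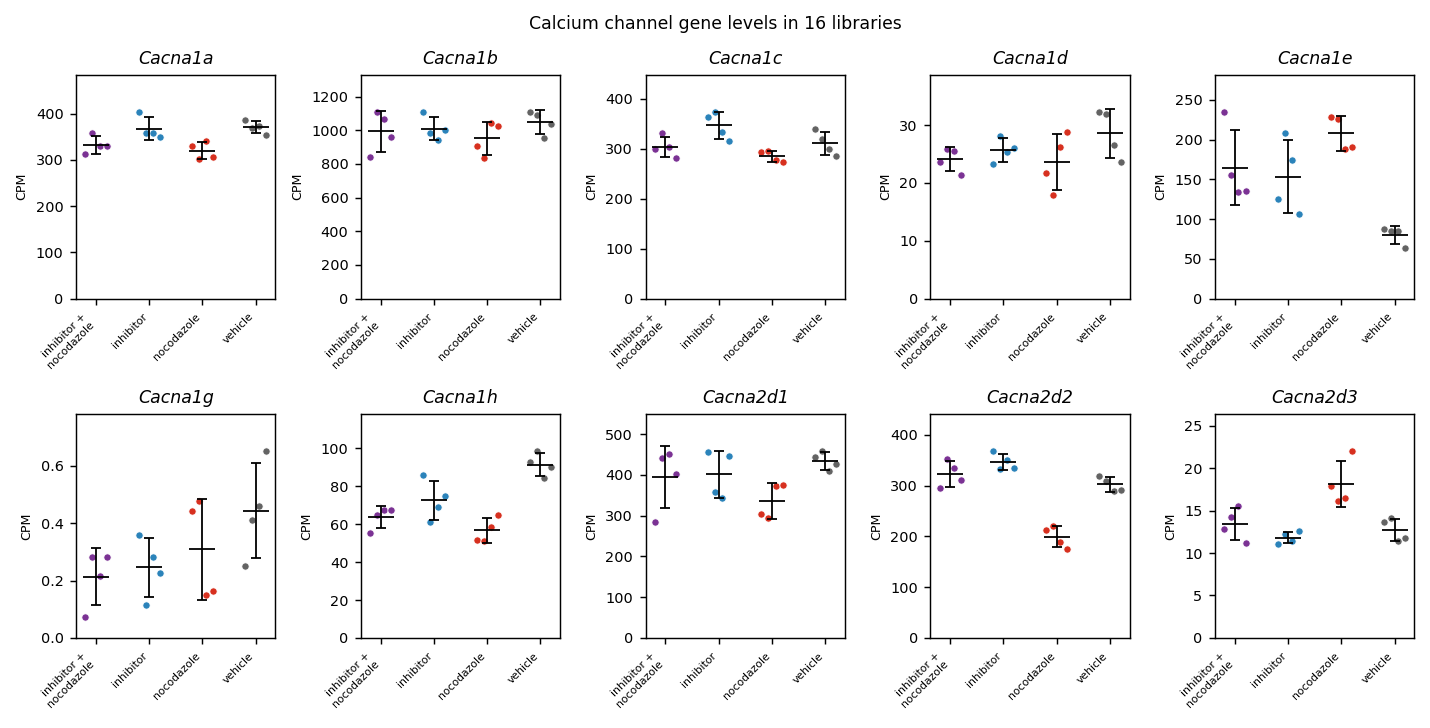
Level of each calcium channel gene in CPM (vertical axes, each from 0) in the 4 groups. Points are the 4 libraries of a group, and bars give the mean and SD. Cacna1e was 188 to 228 CPM with nocodazole alone and 64.0 to 87.1 CPM with vehicle, and Cacna2d2 was 176 to 219.6 CPM with nocodazole alone and 289.7 to 319 CPM with vehicle.

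Changes were tested with edgeR's quasi-likelihood test over all 19156 genes, and a gene was called at a Benjamini-Hochberg adjusted p below 0.05. Nocodazole without inhibitor called 2 of the 10 genes higher and 4 lower, where 18.6% of all genes were called higher and 19.0% lower. The median log2 change was -0.24 over the 10 genes and 0.01 over all genes. Inhibitor without nocodazole called 1 gene higher and 1 lower, with 5.78% of all genes higher and 7.24% lower. Its lower call, Cacna1h, depended on single libraries and is described with that gene. Nocodazole with inhibitor called 0 of the 10 genes, and 2 of them, Cacna1a and Cacna1c, were below an unadjusted p of 0.05 (both lower). Of all 19156 genes, 1146 were below that unadjusted p in edgeR. DESeq2 and limma-voom also called 0 of the 10 in that comparison. The background there was 0.0783% higher and 0.00522% lower. Over all genes, nocodazole called 16 genes in the presence of inhibitor, or 88 without inhibitor plus nocodazole replicate 1 and 55 without the 5 libraries of high mitochondrial share, and 7187 in the absence of inhibitor.

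Inhibitor with nocodazole, set against nocodazole alone, called 1 of the 10 genes higher and 1 lower, where 17.7% of all genes were called higher and 16.2% lower. Without inhibitor plus nocodazole replicate 1, or without the 5 libraries of high mitochondrial share, it called 4 of the 10, with 2 higher and 2 lower. Both settings leave out that replicate. Inhibitor plus nocodazole against vehicle also called 1 higher and 1 lower, with a background of 8.26% higher and 8.48% lower. The interaction, taken as the log2 nocodazole change in inhibitor-treated cultures less that in DMSO-treated ones, called 2 of the 10 genes higher and 1 lower, with 9.52% of all genes higher and 9.2% lower. These comparisons share groups, so their counts are not independent of each other.

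**Figure D2:**
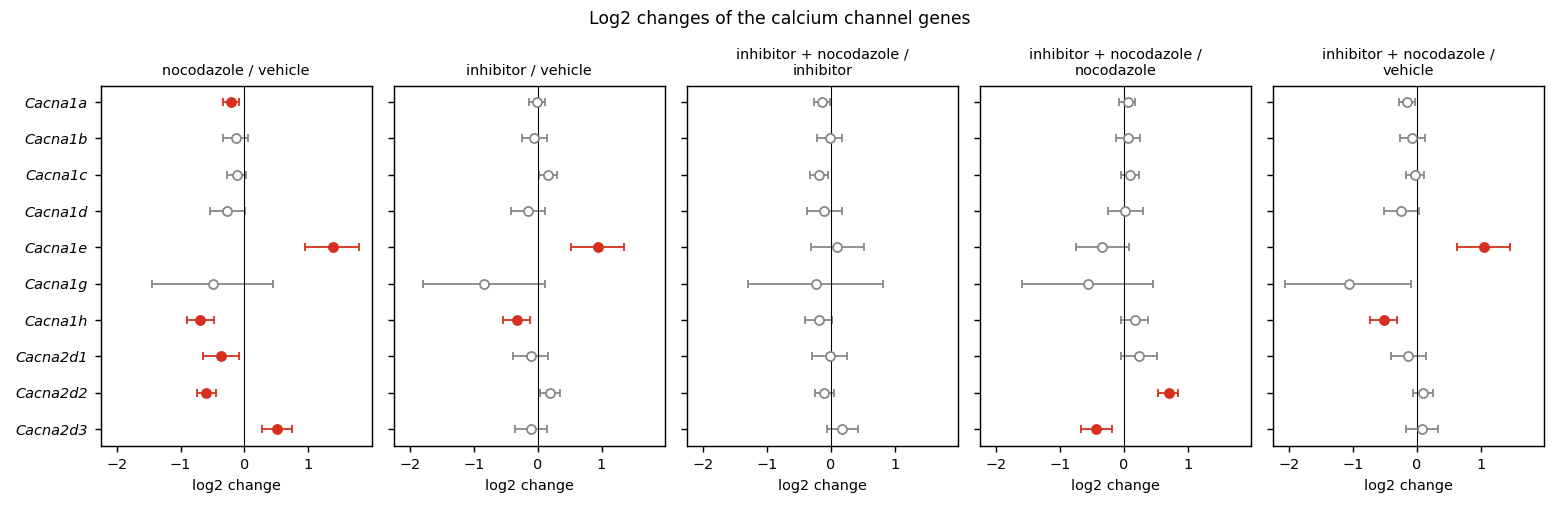
Log2 change (horizontal axes) of each calcium channel gene in 5 comparisons, with 95% intervals. Filled red points passed an edgeR adjusted p of 0.05. Cacna1e is to the right of 0 in 3 panels with a change of 0.94 to 1.38, while the panel for nocodazole in the presence of inhibitor holds no filled point.

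Among the pore subunit genes, Cacna1e (ENSMUSG00000004110.18) moved the most. The R-type channel it encodes is known to contribute to excitability and transmitter release. Its levels were 235, 155, 134 and 136 CPM with inhibitor plus nocodazole, 125, 208, 174 and 107 CPM with inhibitor alone, 228, 226, 188 and 190.2 CPM with nocodazole alone, and 87.1, 85.0, 84.6 and 64.0 CPM with vehicle. Every treated library was above every vehicle library. In each treated group the highest values came from the libraries of high mitochondrial share, at 235 CPM for inhibitor plus nocodazole replicate 1, 208 and 174 CPM for inhibitor replicates 2 and 3, and 228 and 226 CPM for nocodazole replicates 1 and 2.

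Cacna1e rose by 1.38 ± 0.199 on the log2 scale with nocodazole alone (SE; edgeR adjusted p = 5.36e-05), a 2.6-fold difference. It also rose with inhibitor alone, by 0.94 ± 0.198 (edgeR adjusted p = 0.00605), and with both agents against vehicle, by 1.04 ± 0.198 (edgeR adjusted p = 0.00199). Without the 5 libraries of high mitochondrial share the change was 1.24 with nocodazole alone (edgeR adjusted p = 1.12e-06), 0.53 with inhibitor alone (edgeR adjusted p = 0.0113) and 0.82 with both agents (edgeR adjusted p = 6.15e-05). The effects of the agents did not add up. With inhibitor present, the nocodazole change of Cacna1e was 0.10 with a 95% interval of -0.31 to 0.52 (edgeR adjusted p = 0.999), and the interaction was -1.27 ± 0.278 (edgeR adjusted p = 0.00492). The interaction held in all 23 alternative analyses, between -1.49 and -0.96, the smallest without the 5 libraries. Between inhibitor plus nocodazole and nocodazole alone the change was -0.34 with an interval of -0.75 to 0.08 (edgeR adjusted p = 0.204). That comparison passed in the alternatives that left out inhibitor plus nocodazole replicate 1, at -0.56 without it alone (edgeR adjusted p = 0.0192) and -0.43 without the 5 libraries (edgeR adjusted p = 0.0095).

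Near its start, Cacna1e also differs in base composition from the alpha2delta genes that changed, but some windows of genes that were not called resemble it. The RefSeq windows below run from 250 bases before to 50 bases after an annotated start on mouse GRCm38.p6 and are shown for the member that moved the most and for the 2 leading alpha2delta genes. Capitals mark the GC box, GGGCGG on either strand. The Cacna1e window, chr1:154725871-154726170 on the minus strand, is 55.3% G or C and holds 0 GC boxes. The Cacna2d1 window, chr5:15934441-15934740 on the plus strand, is 80.0% G or C with 7 GC boxes, some of which overlap. The Cacna2d2 window, chr9:107399630-107399929 on the plus strand, is 75.7% G or C with 1.
Cacna1e: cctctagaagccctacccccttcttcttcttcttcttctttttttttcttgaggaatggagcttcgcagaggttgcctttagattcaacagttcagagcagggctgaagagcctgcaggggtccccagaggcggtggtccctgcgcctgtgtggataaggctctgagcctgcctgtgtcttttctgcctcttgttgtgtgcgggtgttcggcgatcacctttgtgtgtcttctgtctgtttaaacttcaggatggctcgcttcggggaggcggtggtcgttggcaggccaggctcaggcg
Cacna2d1: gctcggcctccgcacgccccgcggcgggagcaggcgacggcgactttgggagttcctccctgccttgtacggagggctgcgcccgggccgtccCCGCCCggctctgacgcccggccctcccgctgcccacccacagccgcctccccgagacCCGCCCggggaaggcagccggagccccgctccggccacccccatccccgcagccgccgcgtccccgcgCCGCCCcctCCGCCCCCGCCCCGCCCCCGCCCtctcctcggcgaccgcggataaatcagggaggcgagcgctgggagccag
Cacna2d2: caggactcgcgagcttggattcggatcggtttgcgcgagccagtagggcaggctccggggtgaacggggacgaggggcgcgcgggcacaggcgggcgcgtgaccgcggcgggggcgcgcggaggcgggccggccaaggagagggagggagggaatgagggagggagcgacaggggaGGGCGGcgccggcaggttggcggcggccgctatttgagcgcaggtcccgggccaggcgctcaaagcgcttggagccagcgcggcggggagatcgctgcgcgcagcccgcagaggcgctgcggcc
The GC box occurs in 35.7% of all 32851 windows, whose median composition is 52.7% G or C. The Cacna2d3 window holds 6 GC boxes and is 81.3% G or C. Windows with 0 GC boxes also occur for Cacna1c, at 51.3% G or C, and Cacna1d, at 40.3%, which were not called. Another window of each holds 6 GC boxes, at 81.3% and 87.3% G or C. A link between composition and the changes was not tested. The AP-1 motif TGANTCA, found in 7.81% of all windows on either strand, and the CRE motif TGACGTCA, found in 1.79%, occur in none of the 10 windows that the table gives for 7 of the 10 genes. These matches describe letters only.

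Cacna1h (ENSMUSG00000024112.17), which encodes the T-type channel that lowers the threshold for firing in subsets of sensory neurons, moved the other way. Its levels were 55.1, 64.6, 67.6 and 67.3 CPM with inhibitor plus nocodazole, 85.7, 60.9, 69.3 and 74.6 CPM with inhibitor alone, 51.9, 51.2, 58.6 and 65.0 CPM with nocodazole alone, and 92.9, 98.5, 84.5 and 89.9 CPM with vehicle. Neither nocodazole group reached the vehicle range, whereas inhibitor replicate 1 did. Cacna1h fell by 0.69 ± 0.101 with nocodazole alone (SE, log2 scale; edgeR adjusted p = 5.59e-05) and by 0.52 ± 0.1 with both agents against vehicle (edgeR adjusted p = 0.00209). With inhibitor alone it fell by 0.33 ± 0.0999 (edgeR adjusted p = 0.0381), a call that was lost in 8 of 16 alternatives, where the edgeR adjusted p reached 0.145. These included leaving out any of vehicle replicates 1, 2 and 4 or inhibitor replicates 2 and 3, and leaving out the 5 libraries of high mitochondrial share gave -0.19.

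As with Cacna1e, the nocodazole change of Cacna1h was smaller in the presence of inhibitor. It was -0.19 there, with an interval of -0.40 to 0.02 (edgeR adjusted p = 0.89). The interaction was 0.50 ± 0.142 (edgeR adjusted p = 0.0218) and held in 22 of 23 alternatives. Without the 5 libraries of high mitochondrial share it was 0.29 and missed the threshold (edgeR adjusted p = 0.0821). The exons of Cacna1h overlap those of Tpsg1 on the opposite strand over 1.62% of their length, and the strand setting of the counting is not given in the sources used here.

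Cacna1a (ENSMUSG00000034656.19), the P/Q-type pore gene, fell by a small amount with nocodazole. It had 312, 359, 329.8 and 330 CPM with inhibitor plus nocodazole, 404, 358, 359 and 350.2 CPM with inhibitor alone, 329.8, 302, 340.2 and 307 CPM with nocodazole alone, and 387, 369, 374 and 354 CPM with vehicle. The 4 nocodazole libraries were all below the 4 vehicle libraries. The difference was -0.21 ± 0.0602 on the log2 scale (edgeR adjusted p = 0.0103) and was called in all 15 alternatives. With inhibitor present the nocodazole change was -0.14, with an interval of -0.27 to -0.02 and an edgeR adjusted p of 0.739. The interaction of 0.07 ± 0.0851 (edgeR adjusted p = 0.603) gave no call of a difference between these changes. Some 3.81% of the Cacna1a exons overlap Gm16183 on the opposite strand.

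The other pore genes were called in none of the 6 comparisons by edgeR. Cacna1b (ENSMUSG00000004113.19), the N-type gene, had 839, 1106, 1068 and 958 CPM with inhibitor plus nocodazole and 1109, 982, 944 and 1004 CPM with inhibitor alone. It had 904, 837, 1042 and 1026 CPM with nocodazole alone and 1106, 1093, 951 and 1038 CPM with vehicle. All groups overlapped. Its log2 change with nocodazole alone was -0.14, with an interval of -0.33 to 0.06 (edgeR adjusted p = 0.252), so a decrease of up to that lower bound was not told apart from 0.

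Of the L-type genes, Cacna1c (ENSMUSG00000051331.17) averaged 304 ± 20.4 CPM with inhibitor plus nocodazole, 347 ± 26.5 CPM with inhibitor alone, 285 ± 11.2 CPM with nocodazole alone and 311 ± 23.2 CPM with vehicle. Its ranges overlapped in each of the 5 pairwise comparisons. Its change with inhibitor alone was 0.16, with an interval of 0.02 to 0.30 (edgeR adjusted p = 0.126). Cacna1d (ENSMUSG00000015968.19) averaged 24.1 ± 2.1, 25.7 ± 2.05, 23.7 ± 4.86 and 28.6 ± 4.21 CPM in the same order of groups, and its change with nocodazole alone was -0.27, with an interval of -0.54 to 0.01 (edgeR adjusted p = 0.115). That change passed when nocodazole replicate 4 was left out (edgeR adjusted p = 0.0286) and was -0.05 without the 5 libraries of high mitochondrial share (edgeR adjusted p = 0.799). Some 4.67% of its exons overlap Chdh on the opposite strand. Cacna1g (ENSMUSG00000020866.18), a T-type gene, had 3 to 10 counts with inhibitor plus nocodazole, 4 to 13 with inhibitor alone, 5 to 16 with nocodazole alone and 8 to 21 with vehicle. A change was not detectable at this depth, and the interval with nocodazole alone ran from -1.44 to 0.44. Without the 5 libraries of high mitochondrial share, which leaves 2 nocodazole libraries, the change was -1.48 (edgeR adjusted p = 0.0289).

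The alpha2delta genes, whose products are extracellular and raise the surface level of the pore subunits, separated into a falling pair and a rising minor member with nocodazole. Cacna2d2 (ENSMUSG00000010066.16), which encodes the other gabapentin-binding alpha2delta, had 295, 353, 335 and 311 CPM with inhibitor plus nocodazole, 368, 333, 351 and 334 CPM with inhibitor alone, 213, 219.6, 189.8 and 176 CPM with nocodazole alone, and 319, 309, 289.7 and 292 CPM with vehicle. The nocodazole libraries were below all 12 others. Cacna2d2 fell by 0.60 ± 0.0727 with nocodazole alone (SE, log2 scale; edgeR adjusted p = 9.36e-06). It was higher by 0.70 ± 0.0728 with inhibitor plus nocodazole than with nocodazole alone (edgeR adjusted p = 2.08e-06), and the interaction was 0.50 ± 0.102 (edgeR adjusted p = 0.0033). All these calls held in every alternative run.

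Between inhibitor plus nocodazole and vehicle, the Cacna2d2 change was 0.10 with an interval of -0.06 to 0.25 (edgeR adjusted p = 0.403). With inhibitor alone it was 0.20, with an interval of 0.04 to 0.35 (edgeR adjusted p = 0.0849); all 4 inhibitor libraries were above all 4 vehicle libraries. Some 1.03% of the Cacna2d2 exons overlap Gm17141 on the opposite strand.

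Cacna2d1 (ENSMUSG00000040118.16), the injury-linked gene, was lower with nocodazole, the direction opposite to the increase known from injured nerves. Its levels were 284, 442, 450.2 and 402 CPM with inhibitor plus nocodazole, 455, 358, 344 and 447 CPM with inhibitor alone, 304, 293, 372 and 375 CPM with nocodazole alone, and 444, 458, 409 and 426 CPM with vehicle. The 4 nocodazole libraries were below the 4 vehicle libraries, and both inhibitor groups spanned the gap between them. Cacna2d1 fell by 0.37 ± 0.131 with nocodazole alone (SE, log2 scale; edgeR adjusted p = 0.035). The call was lost in 5 of 15 alternatives, each of which left out 1 library (nocodazole replicate 1 or 2, or vehicle replicate 1, 2 or 4), with edgeR adjusted p from 0.00811 to 0.0992 over all 15. The direction held in all of them, between -0.44 and -0.21. The 5 libraries of high mitochondrial share were the 5 lowest for this gene, at 284 to 358 CPM, and the other 11 were at 372 to 458 CPM. Without them the change with nocodazole alone was -0.21 and passed (edgeR adjusted p = 0.0126).

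With all libraries, no other comparison called Cacna2d1. The nocodazole change with inhibitor was -0.02, with an interval of -0.30 to 0.25 (edgeR adjusted p = 0.999), and the interaction was 0.35 ± 0.185 (edgeR adjusted p = 0.199). The lowest value of the gene, 284 CPM, belonged to inhibitor plus nocodazole replicate 1. Without that library the interaction was 0.48 and passed (edgeR adjusted p = 0.022), but without the 5 libraries it was 0.15 and did not (edgeR adjusted p = 0.273). The change between inhibitor plus nocodazole and nocodazole alone was 0.23 with all libraries (edgeR adjusted p = 0.191). It passed without that library, at 0.36 (edgeR adjusted p = 0.0123), and without the 5, at 0.20 (edgeR adjusted p = 0.0226).

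Cacna2d3 (ENSMUSG00000021991.10), an alpha2delta gene at a low level, rose with nocodazole. It had 12.8, 14.2, 15.5 and 11.2 CPM with inhibitor plus nocodazole, 11.1, 12.2, 11.4 and 12.6 CPM with inhibitor alone, 17.9, 16.1, 16.5 and 22.0 CPM with nocodazole alone, and 13.6, 14.1, 11.4 and 11.8 CPM with vehicle. The nocodazole libraries were above all 12 others. Cacna2d3 rose by 0.51 ± 0.115 with nocodazole alone (SE, log2 scale; edgeR adjusted p = 0.00232). It fell by 0.43 ± 0.114 with inhibitor plus nocodazole against nocodazole alone (edgeR adjusted p = 0.00752). The interaction was -0.33 ± 0.162 and missed the threshold (edgeR adjusted p = 0.171), so a difference between the nocodazole changes with and without inhibitor was not called.

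Summed per kilobase of exon, the alpha2delta genes were at 61.5, 81.7, 80.2 and 72.8 CPM per kb with inhibitor plus nocodazole, 84.2, 72.1, 73.2 and 79.5 with inhibitor alone, 53.3, 53.0, 55.7 and 54.9 with nocodazole alone, and 77.5, 77.4, 70.7 and 72.5 with vehicle. The nocodazole sums lay below all others. The 7 pore genes summed to 158 ± 13.5, 166 ± 9.64, 153 ± 10.3 and 167 ± 9.33 CPM per kb in the same order, and these ranges overlapped. Within the pore sum, Cacna1b held 62.9 ± 2.63%, 61.3 ± 1.45%, 62.4 ± 2.39% and 62.9 ± 1.34% in that order. The Cacna1e share was 4.2 ± 1.55% with inhibitor plus nocodazole, 3.69 ± 1.17% with inhibitor alone, 5.43 ± 0.913% with nocodazole alone and 1.9 ± 0.244% with vehicle. The Cacna1h share was 4.13 ± 0.307%, 4.48 ± 0.486%, 3.78 ± 0.273% and 5.6 ± 0.188% in that order. With vehicle Cacna1h exceeded Cacna1e in every library, and with nocodazole alone Cacna1e exceeded Cacna1h in every library.

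**Figure D3:**
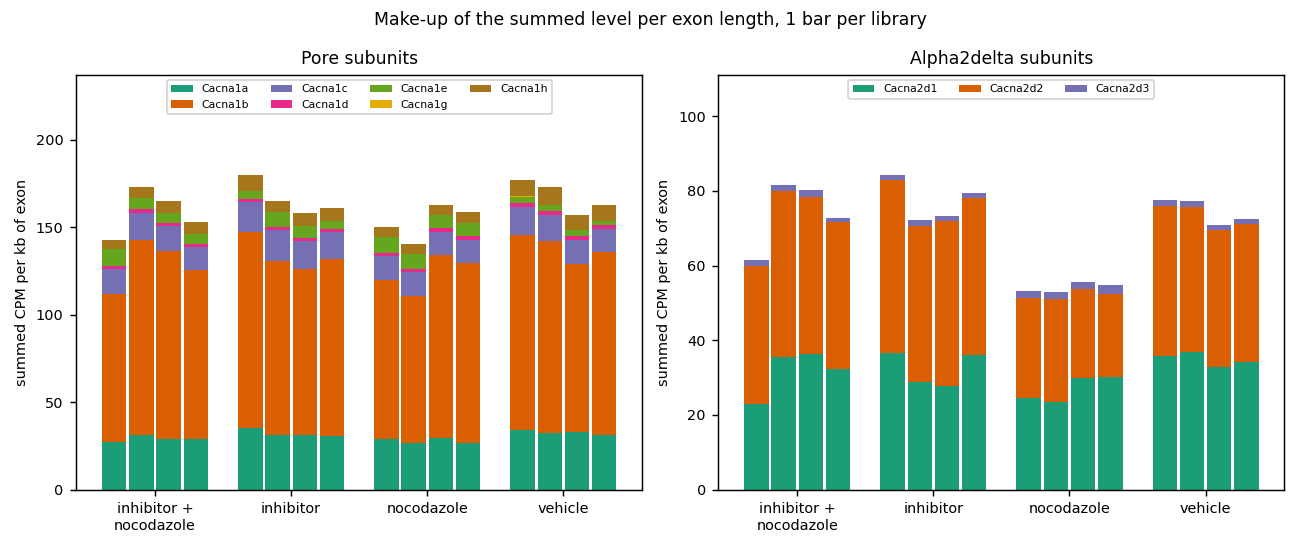
Summed level of the 7 pore genes (left) and the 3 alpha2delta genes (right) in CPM per kb of exon, 1 stacked bar per library, coloured by gene. The alpha2delta bars of nocodazole alone reach 53.0 to 55.7, below the 70.7 to 77.5 of vehicle, and Cacna1b makes up most of each pore bar.

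Neuronal markers moved beside these results. The summed level of 15 neuronal marker genes was 14896 to 18425 CPM with inhibitor plus nocodazole, 16255 to 19002 CPM with inhibitor alone, 15423 to 18951 CPM with nocodazole alone and 19146 to 20505 CPM with vehicle. Without Tubb3, which fell by 1.60 with nocodazole alone (edgeR adjusted p = 6.47e-06), the sums were 13952 to 16606, 14249.9 to 16207, 14639 to 17767 and 16191 to 17218 CPM in the same order and overlapped. Nocodazole without inhibitor called 1 of the 15 higher (Map2) and 6 lower (Rbfox3, Tubb3, Elavl3, Elavl4, Isl1 and Pou4f1), beside 18.6% and 19.0% of all genes. The Elavl3 call was lost without the 5 libraries of high mitochondrial share (edgeR adjusted p = 0.0748). Inhibitor with nocodazole called 6 of the 15 higher and 1 lower, beside 17.7% and 16.2%. Glial markers summed to 80.5 to 147, 94.5 to 162, 94.3 to 146 and 162 to 186 CPM in the same order of groups, mostly from S100b and Mbp. Of 6 glial markers tested, the median change with nocodazole without inhibitor was 0.24. Erbb3 was called higher (1.13, edgeR adjusted p = 0.00626) and Mbp lower (-0.40, edgeR adjusted p = 0.00062). S100b was at -0.79 (edgeR adjusted p = 0.115). Its nocodazole values were 34.5 and 28.4 CPM in replicates 1 and 2, of high mitochondrial share, and 80.5 and 76.2 CPM in replicates 3 and 4. Fibroblast markers summed to 2.42 to 3.35, 2.95 to 5.06, 6.07 to 9.16 and 3.08 to 6.24 CPM, and 14 markers of sensory neuron subtypes to 3007 to 3407, 3215 to 3501, 3614 to 3913 and 3749 to 4107 CPM. The fibroblast and subtype sums of nocodazole alone overlapped those of vehicle. The fibroblast gene Dcn was higher with nocodazole alone by 1.62 (edgeR adjusted p = 0.00665), at 1.38 to 4.93 CPM against 0.84 to 1.31 CPM with vehicle. The part of these marker differences in the channel results was not tested, and in bulk RNA fewer cells of a type and less RNA per cell cannot be told apart.

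Further genes of the pore, alpha2delta, beta and gamma families were measured from a list of 16, of which 13 were tested. Nocodazole without inhibitor called 1 higher and 7 lower, with a median log2 change of -0.38 over the 13, beside 18.6% higher and 19.0% lower over all genes. The gene that rose was Cacng3, of the transmembrane gamma family whose members also act as auxiliary subunits of AMPA receptors. Those that fell were the gamma family genes Cacng2, Cacng4, Cacng5 and Cacng8 and the beta genes Cacnb1, Cacnb3 and Cacnb4. The counts and the median therefore do not speak of calcium channel subunits alone. Cacng3 averaged 10.4 ± 0.965 CPM with inhibitor plus nocodazole, 9.3 ± 1.19 CPM with inhibitor alone, 21.4 ± 3.07 CPM with nocodazole alone and 8.45 ± 1.54 CPM with vehicle. Nocodazole alone stood above the other groups, with a change of 1.34 ± 0.134 against vehicle (edgeR adjusted p = 1.45e-06) and an interaction of -1.18 ± 0.189 (edgeR adjusted p = 0.00056).

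Its relatives Cacng8, Cacng2 and Cacng5 fell. Cacng8 changed by -1.23 ± 0.321 with nocodazole alone (edgeR adjusted p = 0.00645), and Cacng2, the stargazin gene, by -1.16 ± 0.252 (edgeR adjusted p = 0.00179). Over 15 alternatives the Cacng8 change ran from -1.63 to -0.81 and the Cacng2 change from -1.33 to -0.84. Both were called in all of them. Cacng5 averaged 62.5 ± 15.3 CPM with inhibitor plus nocodazole, 62.7 ± 7.78 CPM with inhibitor alone, 32.1 ± 1.83 CPM with nocodazole alone and 61.8 ± 6.26 CPM with vehicle. It fell by 0.95 ± 0.146 with nocodazole alone (edgeR adjusted p = 9.47e-05), with an interaction of 0.94 ± 0.204 (edgeR adjusted p = 0.00481).

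The beta subunit genes encode a cytoplasmic partner that helps pores other than the T-type reach the membrane. Cacnb1 averaged 98.7 ± 6.19 CPM with inhibitor plus nocodazole, 107 ± 3.73 CPM with inhibitor alone, 81.5 ± 10.6 CPM with nocodazole alone and 119 ± 3.31 CPM with vehicle. It fell by 0.54 ± 0.0747 with nocodazole alone (edgeR adjusted p = 3.28e-05), with an interaction of 0.43 ± 0.105 (edgeR adjusted p = 0.0101). Cacnb3 at -0.38 (edgeR adjusted p = 0.000481) and Cacnb4 at -0.30 (edgeR adjusted p = 0.035), named after their values were seen, also fell with nocodazole alone. The Cacnb4 call was lost in 6 of 15 alternatives, among them leaving out nocodazole replicate 3 or 4 or vehicle replicate 1, 2 or 4 (highest edgeR adjusted p = 0.0926). Cacnb2, named likewise and with 23 to 70 counts, was not called at -0.41 (edgeR adjusted p = 0.259). With inhibitor present, nocodazole called 0 of the 13 genes (0 below an unadjusted p of 0.05) in edgeR. DESeq2 and limma-voom called 0 as well. The edgeR background there was 0.0783% higher and 0.00522% lower over all genes, so 0 calls among 13 genes is near it.

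**Figure D4:**
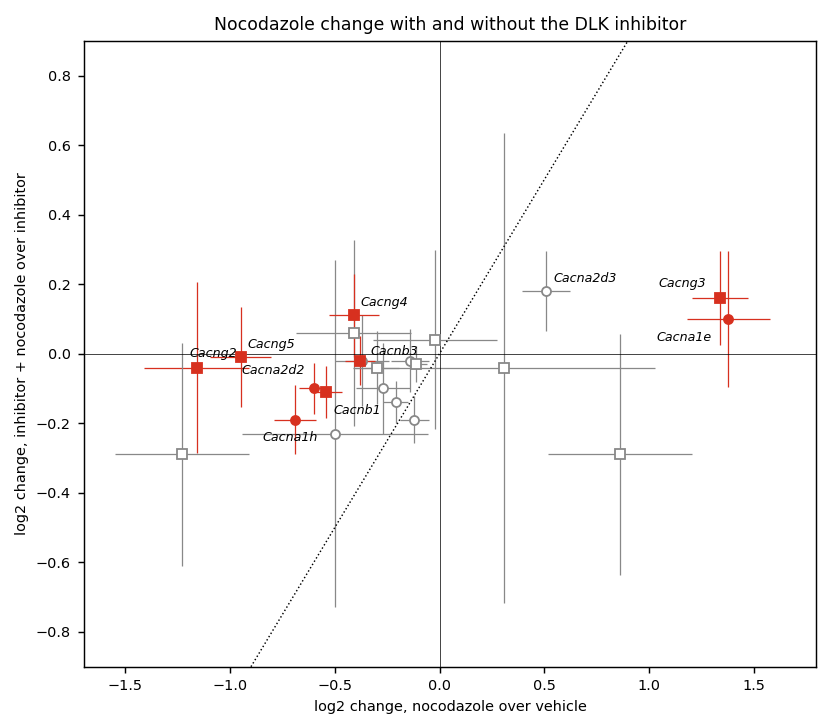
Log2 change with nocodazole in the presence of inhibitor (vertical axis) against that without inhibitor (horizontal axis), which use different control libraries, for the 10 main genes (circles) and 13 other subunit genes (squares), with SE bars. Filled red symbols passed an edgeR adjusted p of 0.05 for the interaction, and the dotted line marks equal changes. Cacna1e lies at 1.38 and 0.10, and Cacna2d2 at -0.60 and -0.10.

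A different pattern was seen for Cacna1i, the third T-type pore gene, which had 15 to 77 counts per library. It averaged 1.65 ± 0.496 CPM with inhibitor plus nocodazole, 1.6 ± 0.41 CPM with inhibitor alone, 0.649 ± 0.176 CPM with nocodazole alone and 0.66 ± 0.139 CPM with vehicle. It was higher in both inhibitor groups, by 1.28 ± 0.276 without nocodazole (edgeR adjusted p = 0.00684) and by 1.34 ± 0.278 with it (edgeR adjusted p = 0.00128). Its nocodazole change was -0.02 ± 0.296 (edgeR adjusted p = 0.967). Inhibitor without nocodazole called 1 of the 13 genes higher and 1 lower, beside 5.78% higher and 7.24% lower over all genes. The lower gene was Cacng4 at -0.49 (edgeR adjusted p = 0.0126), which missed the threshold without inhibitor replicate 3 (edgeR adjusted p = 0.0511) and without the 5 libraries of high mitochondrial share (edgeR adjusted p = 0.121).

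Of 17 genes for proteins that regulate the channels, 15 were tested, and nocodazole without inhibitor called 3 higher and 3 lower. With 18.6% of all genes called higher and 19.0% lower, these shares are near the background. Gem, a small GTPase that inhibits calcium currents by binding the beta subunit, had 1 to 10 counts with inhibitor plus nocodazole, 3 to 6 with inhibitor alone, 31 to 71 with nocodazole alone and 0 to 4 with vehicle. The groups with nocodazole alone and with vehicle did not overlap (edgeR adjusted p = 3.33e-06); the fitted change of 4.47 depends on the prior count at such low levels. The related Rrad had 12 to 28 counts with nocodazole alone and 1 to 10 with vehicle (edgeR adjusted p = 0.00269). Cabp1, a calcium-binding protein that modulates channel inactivation, rose by 0.81 (edgeR adjusted p = 0.00443). Its nocodazole values were 34.4 and 34.2 CPM in replicates 1 and 2, of high mitochondrial share. Nocodazole replicates 3 and 4 were at 25.9 and 25.7 CPM, and vehicle libraries at 13.5 to 19.6 CPM. The Cabp1 call held in all 15 alternatives, between 0.59 and 0.87. Rimbp2, a scaffold that tethers channels at release sites, averaged 48.1 ± 7.4 CPM with inhibitor plus nocodazole, 50.9 ± 8.32 CPM with inhibitor alone, 27.4 ± 3.61 CPM with nocodazole alone and 53.3 ± 7.48 CPM with vehicle. It fell by 0.96 ± 0.138 with nocodazole alone (edgeR adjusted p = 4.88e-05), and its interaction was 0.88 ± 0.193 (edgeR adjusted p = 0.00515).

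The inhibitor lowered regulators that nocodazole left uncalled. Inhibitor without nocodazole called 0 of the 15 higher and 3 lower, beside 5.78% and 7.24% of all genes, and called 2 lower without the 5 libraries of high mitochondrial share. Cbarp, which encodes a beta-subunit-binding protein that reduces channel activity, averaged 268 ± 5.75 CPM with inhibitor plus nocodazole, 259.9 ± 8.08 CPM with inhibitor alone, 362 ± 17.2 CPM with nocodazole alone and 337 ± 25.7 CPM with vehicle. It fell by 0.38 ± 0.0556 with inhibitor alone (edgeR adjusted p = 0.000535) and by 0.44 ± 0.0556 with inhibitor on top of nocodazole (edgeR adjusted p = 1.52e-05). Stac, an adaptor that binds L-type channels, fell by 0.59 ± 0.111 and by 0.79 ± 0.111 in the same comparisons (edgeR adjusted p = 0.00307 and 4.32e-05). Usp5, a deubiquitinase known to act on the T-type channel of Cacna1h, fell by 0.28 with inhibitor alone (edgeR adjusted p = 0.0425), a call lost in 7 of 16 alternatives, among them leaving out inhibitor replicate 1, 2 or 3 or vehicle replicate 2 or 4.

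**Figure D5:**
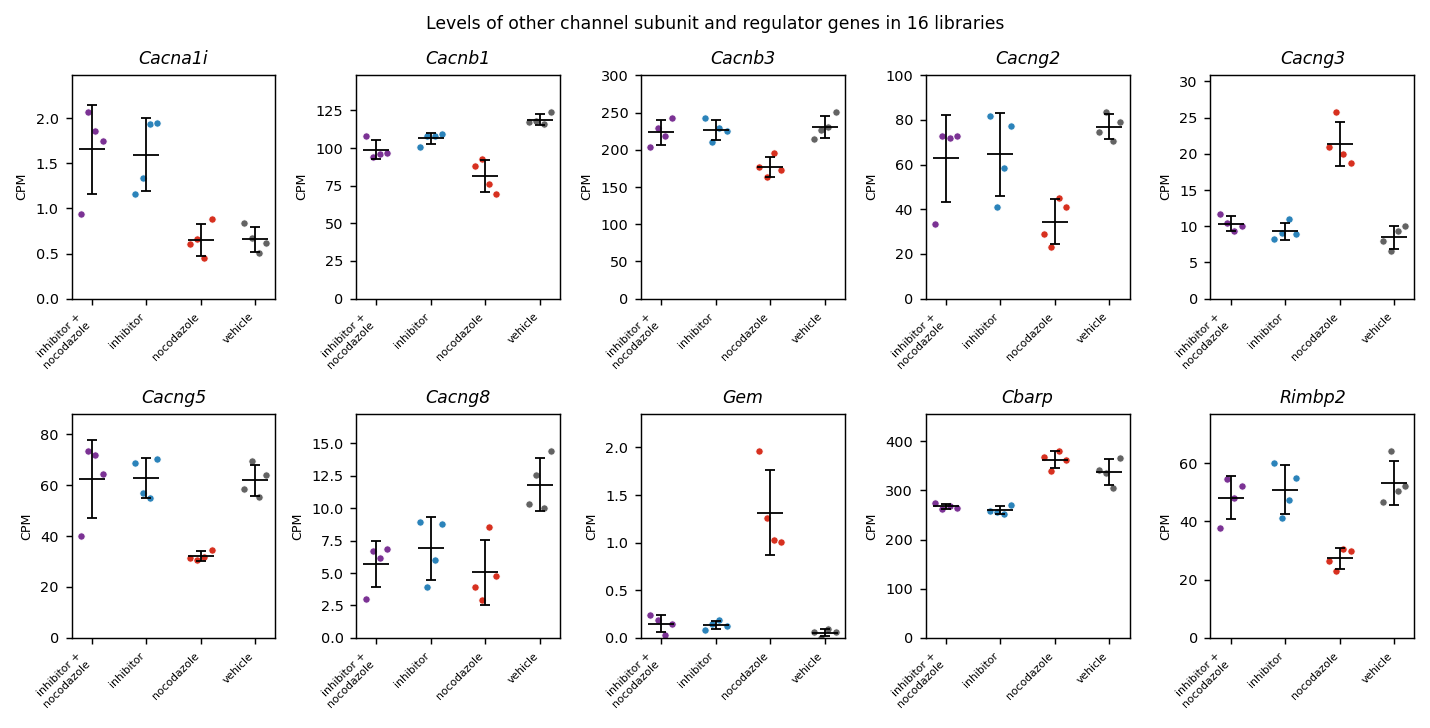
Level in CPM (vertical axes, each from 0) of 7 other channel subunit genes and 3 regulator genes in the 4 groups, with points for libraries and bars for mean and SD. Cacng3 averaged 21.4 CPM with nocodazole alone and 8.45 CPM with vehicle, while Cacna1i was higher in both inhibitor groups.

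Of 6 genes for alpha2delta ligands and partners, 4 were tested and nocodazole without inhibitor called 0 (0 below an unadjusted p of 0.05) in edgeR, as did DESeq2 and limma-voom. With 18.6% of all genes called higher and 19.0% lower, 0 calls among 4 genes says little. Inhibitor with nocodazole called 1 of the 4 lower, beside 16.2% of all genes. That gene, Thbs2, had 9 to 25 counts per library and was called in only 7 of 16 alternatives. The thrombospondin gene Thbs4, whose product is known to bind alpha2delta-1 and to rise after nerve injury in rodents, had 0 counts in every library. Of 21 genes for calcium clearance and stores, 20 were tested and nocodazole without inhibitor called 1 higher and 7 lower, beside 18.6% higher and 19.0% lower over all genes. Atp2b1, a plasma membrane calcium pump gene, averaged 423 ± 67.2 CPM with inhibitor plus nocodazole, 452 ± 60.9 CPM with inhibitor alone, 283 ± 8.38 CPM with nocodazole alone and 535 ± 61.6 CPM with vehicle. It fell by 0.92 ± 0.113 with nocodazole alone (edgeR adjusted p = 1.12e-05), and its interaction was 0.82 ± 0.159 (edgeR adjusted p = 0.00235). The store release channel genes Itpr3 and Ryr3 fell by 1.09 and 0.99 (edgeR adjusted p = 0.00404 and 0.000452), and the store-operated channel gene Orai3 rose by 1.19 (edgeR adjusted p = 0.0204). The Orai3 call was lost when nocodazole replicate 1 or 2 or vehicle replicate 1 or 2 was left out (highest edgeR adjusted p = 0.0721). Its change ran from 0.62 to 1.39 over 15 alternatives. Orai3 was at 10.2 and 12.4 CPM in nocodazole replicates 1 and 2, of high mitochondrial share. Nocodazole replicates 3 and 4 were at 7.19 and 4.36 CPM, and vehicle libraries at 3.02 to 4.4 CPM.

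Another pump gene followed the inhibitor. Atp2b4 averaged 73.4 ± 4.3 CPM with inhibitor plus nocodazole, 76.4 ± 14.3 CPM with inhibitor alone, 30.7 ± 6.61 CPM with nocodazole alone and 36.7 ± 4.96 CPM with vehicle. It rose by 1.06 ± 0.15 with inhibitor alone (edgeR adjusted p = 0.000398), and its nocodazole change was -0.26 ± 0.151 (edgeR adjusted p = 0.193).

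The genes whose log2 CPM followed Cacna2d1 most closely among 19064 tested genes with a symbol were Plcb1, Sv2b, Etv1, Ncam2 and Astn1, with Pearson correlations over the 16 libraries of 0.979, 0.977, 0.973, 0.969 and 0.968. After the group means were removed the correlations were 0.97, 0.965, 0.978, 0.955 and 0.972 in that order, so the likeness was carried by differences between libraries of 1 group as well. The values describe these libraries, which share culture, library preparation and sequencing depth in each pair of genes.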

How the data were processed

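RNA from 16 cultures in 4 groups of 4 was analysed from a table of counts per Ensembl gene, deposited by the authors. STAR, Salmon and GRCm39 are named per the submitters' processing notes; versions, strand setting and the treatment of shared reads are not given in the sources used here. GENCODE M21 gave symbols for 94.1% of identifiers and exon lengths. Members and lists were chosen with earlier results of these data known.

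Counts were scaled by TMM (factors 0.9595 to 1.0637), filtered with filterByExpr and fitted by edgeR 4.0.16 in R 4.3.3 with 1 mean per group over all libraries, with Benjamini-Hochberg adjustment over 19156 genes (72 without a symbol). SE values come from the quasi-likelihood F. Log2 CPM used a prior count of 2. DESeq2 1.42.0 and limma 3.58.1 were alternatives, beside other scaling, no filter, a replicate block, contrast groups only and each library left out; leaving out the libraries with a mitochondrial share above 1.2% was added after seeing the data. Fits were tested on simulated data. All 10 members are named, and at most 4 called genes per other list and contrast, by size of change; a gene so named in 1 contrast may be described in others (Cacnb1 through both agents against vehicle). Cacnb2, Cacnb3, Cacnb4 and the marker genes were named after their values were seen. Chi-square divided by its degrees of freedom ran from 7.93 to 49.8 over 24 replicate pairs. No library was therefore a copy of another in its group. Pairs across groups were not compared in this way.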

Additional observations from a re-analysis of the deposited data

Results flagged for a closer look

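In vehicle libraries, 1 Cacna1e value (64.0 CPM) lay far from the other 3 (84.6 to 87.1 CPM): the gap was 0.89 of the group's range. In inhibitor libraries, 1 Cacna1a value (404 CPM) lay far from the others (350.2 to 359 CPM), with a gap of 0.838 of the range. Both gaps exceed the Dixon limit at 95% for 4 samples. With 40 group values examined and about 1 in 20 flagged by chance, such values are not unusual.

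The nocodazole change differed with and without inhibitor, by the interaction term of the edgeR fit, for 3 genes. The difference was -1.27 for Cacna1e, 0.50 for Cacna1h and 0.50 for Cacna2d2 on the log2 scale, with inhibitor minus without. The Cacna1h difference was 0.29 and missed the threshold without the 5 libraries of high mitochondrial share (edgeR adjusted p = 0.0821).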

How the results depend on the processing

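Of 1017 alternative values of single genes, 962 kept direction and call, 14 gained a call, 14 lost one and 27 changed sign. The sign changes fell on 14 of 60 values, and 0 of these 14 were called. With libraries left out, the log2 change ran from -0.08 to 0.01 for Cacna1a with inhibitor alone. For nocodazole with inhibitor it ran from -0.08 to 0.05 for Cacna1b, -0.12 to 0.28 for Cacna1e, -0.46 to 0.08 for Cacna1g and -0.09 to 0.11 for Cacna2d1. For inhibitor with nocodazole it ran from -0.00465 to 0.14 for Cacna1b and -0.09 to 0.12 for Cacna1d, and for both agents against vehicle from -0.09 to 0.00216 for Cacna1c and -0.02 to 0.15 for Cacna2d3. Leaving out inhibitor plus nocodazole replicate 1 and inhibitor replicate 2 together, added after seeing the data, gave 0.03 for Cacna1b and 0.05 for Cacna2d1 in nocodazole with inhibitor. Leaving out the 5 libraries of high mitochondrial share, added likewise, gave 0.02 for Cacna1a, 0.01 for Cacna1b and 0.05 for Cacna2d1 with inhibitor alone, -0.19 for Cacna1d and 0.72 for Cacna1g in inhibitor with nocodazole, and an interaction of -0.00343 for Cacna1b and 0.02 for Cacna1c.

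Of the 10 genes, inhibitor without nocodazole called 1 to 2 with single libraries left out and 1 without those 2 or those 5 libraries, against 2. Inhibitor with nocodazole called 2 to 4 with single libraries left out and 4 without those 2 or those 5, against 2. Over all genes, inhibitor without nocodazole called 1242 to 3087 with single libraries left out, lowest without inhibitor replicate 2 or 3 or vehicle replicate 2 or 4, and 1278 without the 5, against 2494, and both agents against vehicle 2096 to 2938, lowest without vehicle replicate 4, against 3207. Nocodazole with inhibitor called 16 genes, 3 to 88 with libraries left out, 28 with no filter, 6 in contrast groups only, 125 by DESeq2, 39 without the 2 and 55 without the 5. With a replicate block it called 5, and Cacna1h with inhibitor alone was lost and Cacna1c called. Samples with the same number deviated with correlations of -0.40 to 0.23, which gave no sign that the numbers pair the libraries. These values cannot settle it, because the libraries of high mitochondrial share carry different replicate numbers across groups. The cause of these differences was not tested. At 3 to 21 counts, Cacna1g was too low for a verdict.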
